A study of Homo sapiens with 15 samples.

Results

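Clone-named transcripts are genes whose symbol is still the accession of the sequenced genomic clone they were found on, a letter prefix with digits and a version, such as AC106886.2 or U47924.2. They were picked from the deposited table by that form of the symbol alone, and the rule used no measured value. It was set with earlier results of these data known. Of the 13056 rows, 1508 had that form, which is 11.6%. The table covers 15 RNA sequencing libraries of HEK293T, a human embryonic kidney cell line. The shControl group, with a control short hairpin RNA, had 3 libraries. Knockdown groups had 2 libraries each and are named for their target: shU2AF2, shSF3B4, shPABPN1, shPCBP2, shZNF384 and shHDAC1. The study's design text names these proteins, apart from ZNF384, as regulators of alternative polyadenylation. All groups share the cell line, the capture of polyadenylated RNA on oligo(dT) beads and the library kit. The protocols name both isolation of nuclear RNA and extraction of total RNA. Names of the shControl libraries end in nuc, and those of the knockdown libraries do not. Each value is PDUI, an index of the usage of the distal poly(A) site, which the authors gave as a fraction from 0.001 to 1. It estimates the share of a transcript's molecules that end at the farther of its poly(A) sites, and it does not measure how much RNA is present.

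Most genes can end their RNA at more than 1 place. Cleavage and polyadenylation follow a hexamer signal, usually AAUAAA or a close variant, and a proximal site gives a shorter last exon than a distal one. Long non-coding RNAs use the same machinery. Many of them have few exons and lie close to, or across from, protein-coding genes, so an antisense RNA and its partner can cover the same bases on opposite strands. PABPN1 is the nuclear poly(A)-binding protein, SF3B4 a protein of the U2 snRNP, part of the spliceosome, U2AF2 the factor that binds the polypyrimidine tract before 3' splice sites, PCBP2 a poly(C)-binding protein, HDAC1 a histone deacetylase and ZNF384 a zinc finger transcription factor.

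The label of these rows as non-coding held for most and not for all of them. By transcript identifier, 1331 were found in GENCODE release 29, a gene annotation of the same genome build, hg38, and 177 were not. Non-coding gene types applied to 1156. The most common were antisense RNA with 533, long intergenic RNA (lincRNA) with 306, TEC (a gene model that awaits an experimental test) with 102, sense intronic RNA with 95 and processed transcript with 66. Another 173 were annotated as protein-coding and 2 as processed pseudogenes. They are therefore called clone-named transcripts here. In that release 134 of them bear a different symbol.

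They lay on both strands, 759 on the plus and 749 on the minus strand. Chromosome 1 had the most, 144, but chromosome 16 with 133 had a larger share of its rows in the table, 20.3% against 10.6%, and on chromosome 21 they were 46 of 155 rows, or 29.7%. Of the 1329 whose place in the annotation matched, 46.4% had a single exon, against 2.84% of the 11064 rows with other kinds of names that were placed the same way. The median last exon was 598 bases long, against 1500 bases in those other rows. Here and below, the other rows leave out antisense genes named with AS, LINC genes and divergent transcripts named with DT.

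The last exon of a clone-named transcript often shared bases with another gene. It overlapped an exon on the opposite strand only in 422, on the same strand only in 251 and on both strands in 51, and no exon of another gene in 605. The labels do not state that the kit or the counting used strand. If strand was not used, reads of a transcript and of its antisense partner cannot be told apart, and reads from exon bases shared on the same strand cannot be assigned by position in either case, so PDUI of the overlapping rows is uncertain. In 3 rows, AC010422.8, AC000093.1 and AC009412.1, all 15 values equalled those of the rows WDR83OS, GP1BB and FAM220A, so these are 1 measurement listed under 2 names.

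The annotated ends of some of the transcripts described below are shown because PDUI is a statement about such ends. How many of these lines hold a signal does not stand for all described transcripts. Each line gives the last 30 bases of the GENCODE transcript on its own strand, 5′ to 3′, with the poly(A) signal AATAAA or ATTAAA in capitals where the last 40 bases hold one.
AC100830.3: tctcctcttcaAATAAAcgcaagatatcta
AC137630.3: cccaaAATAAAgagacgttgttcactaaca
AC138028.6: ttgttcatAATAAActttccagccatctga
Z83844.2: ttatcagccAATAAAcgctgcctcttgatt
AL365330.1: gtaAATAAAggctgagctttaagttgtaaa
AL354733.3: aagcAATAAAttttaatttaatacaaacta
AL353708.3: ttttaATTAAAgacagcactgtaattttaa
AC009831.1: tggtgctctaATTAAAggtgtcttccccaa
U47924.2: attcggcagtaaaggcccagagcaaaagcc
AC023509.1: aaaaaagccctggaaggtttgggggtgagg
AC106886.2: ttccgccaacattgcctccacacctctcct
AC011448.1: cagccggaccctccgtgggggtggctggac

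The first 6 lines carry AATAAA, starting between 19 bases before the end in AC100830.3 and 27 in AL365330.1. The next pair carries ATTAAA, and the last 4 have neither motif in their last 40 bases. On hg38 these windows are chr15:64695565-64695594 (plus strand) for AC100830.3, chr3:49029677-49029706 (plus) for AC137630.3, chr16:88708956-88708985 (minus) for AC138028.6, chr22:37641832-37641861 (minus) for Z83844.2, chr1:3785509-3785538 (plus) for AL365330.1 and chr9:83975748-83975777 (plus) for AL354733.3. The other windows are chr1:179881607-179881636 (minus) for AL353708.3, chr18:31944127-31944156 (plus) for AC009831.1, chr12:6943508-6943537 (minus) for U47924.2, chr12:53467499-53467528 (plus) for AC023509.1, chr16:30751352-30751381 (plus) for AC106886.2 and chr19:19536047-19536076 (plus) for AC011448.1. All lie in the transcript's last exon.

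Of the 1306 clone-named transcripts with the same version in the annotation, 43.3% held AATAAA in the last 40 bases of the transcript strand and 12.2% held ATTAAA. At least 1 of the signals was present in 53.1%. Over the 7173 rows of the whole table with the same version, the shares were 56.6% for AATAAA, 14.9% for ATTAAA and 68.8% for either. The share with either was near that of clone-named transcripts in the AS, LINC and DT classes, at 55.2%, 55.4% and 51.9%. Within the clone-named transcripts, either signal was found in 71.6% of the 95 sense intronic RNAs, 62.7% of 300 lincRNAs, 53% of 526 antisense RNAs and 39.4% of 165 protein-coding ones. Where the last exon overlapped an exon on the same strand the share was 36.9% of 244. These letters describe the annotated end, which need not be an end used in these cells.

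In every library, clone-named transcripts were at a higher mean PDUI than the other rows, 0.559 to 0.603 against 0.518 to 0.584 over rows with a value in every library. The classes left out of the other rows differed among themselves. Their library means ran from 0.611 to 0.66 in 50 LINC genes and from 0.573 to 0.717 in 15 divergent transcripts. In 155 antisense genes named with AS they were lower, 0.502 to 0.546. In shControl the means were 0.576 ± 0.0144 and 0.545 ± 0.0235 (SD, n = 3). Of all libraries shControl replicate 1 had the lowest clone-named mean, 0.559, against 0.581 and 0.587 in the rest of its group. That library was also the lowest for the other rows, at 0.518 against 0.558 in both of the others, and 10.4% of the clone-named values were missing in it, against 3.32% and 4.44%. It stands apart in level from the rest of its group, so counts of calls are also given without it below. Among the knockdowns the clone-named mean ran from 0.572 ± 0.0028 in shPABPN1 to 0.601 ± 0.0032 in shZNF384 (SD, n = 2 each).

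**Figure D1:**
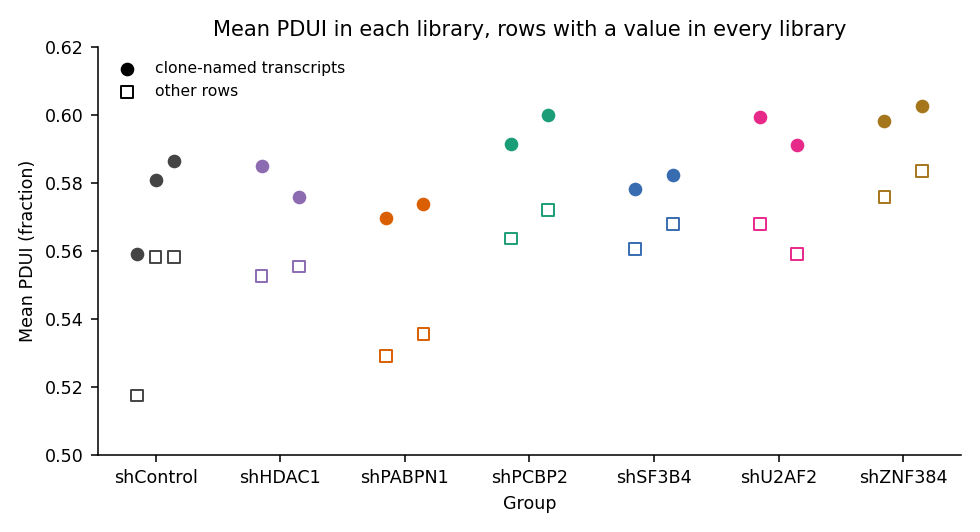
Mean PDUI (fraction, axis from 0.5 to 0.62) of the 1044 clone-named transcripts (filled circles) and the 10089 other rows (open squares) that had a value in every library, 1 point per library, by group. Clone-named means lie above those of the other rows in all 15 libraries, and shControl replicate 1 has the lowest value of both, 0.559 and 0.518.

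Missing values were more frequent among clone-named transcripts than among the other rows. Between 1.46% of them, in shZNF384 replicate 2, and 12.1%, in the first shSF3B4 library, had no value in a library, against 1.26% to 3.13% of the other rows. A value in all 15 libraries was given for 1044 of the 1508, or 69.2%, and for 90.2% of the other rows. The classes left out of the other rows were less complete still. Their shares were 64.3% for antisense genes named with AS, 53.8% for LINC genes and 44.1% for divergent transcripts. Replicates also lay farther apart. The median SD within groups was 0.0719 for clone-named transcripts and 0.0479 for other rows, and among rows with a mean between 0.2 and 0.8 it was 0.0945 against 0.0537. In the AS, LINC and DT classes the median SD was 0.075, 0.0936 and 0.103, so a wide spread was not particular to clone-named transcripts. The depth behind a value is unknown, since the table has no counts.

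Levels covered the whole scale. Of the 1044 complete transcripts, 50 stood at 1 in all 15 libraries and 36 at 0.05 or less in all of them. The median range over the libraries was 0.3, against 0.22 in the other rows, and in 174 it exceeded 0.5. AL450998.2, an antisense RNA, AL139287.1, a sense intronic RNA in INTS11, and AC074117.1, an antisense RNA, stood at 1 in every library. AL359918.2, AC034228.3 and AC087439.1 stood at 0.001, the lowest value in the table, in every library. These 3 are antisense RNAs whose last exons overlap exons of FMN2, ACSL6 and PIP4P2.

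Transcripts whose last exon overlapped no other exon had a median PDUI of 0.734, with the middle of their distribution from 0.534 to 0.877. Those over an exon of the opposite strand were lower, with a median of 0.455 and a lower quartile of 0.0953. Overlap on the same strand went with a median of 0.707. The spread within groups followed the same split, with a median SD of 0.0999 without overlap, 0.0477 with opposite-strand overlap and 0.0553 with same-strand overlap. Among rows with a mean between 0.2 and 0.8 these SDs were 0.112, 0.091 and 0.0634. In the other rows opposite-strand overlap went the other way in level, with a median of 0.656 against 0.567 without overlap.

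**Figure D2:**
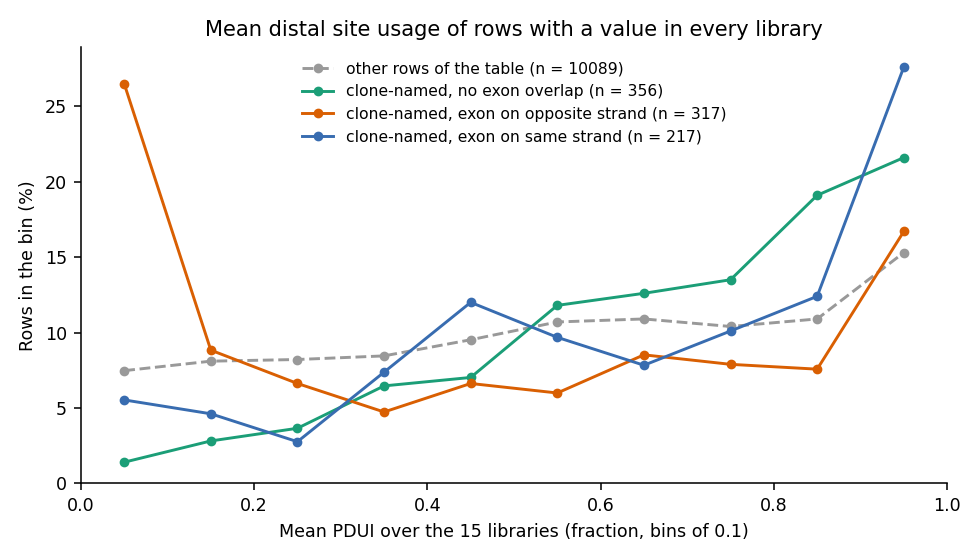
Share of rows (%) in bins of 0.1 of the mean PDUI over 15 libraries, for rows with a value in every library, by exon overlap of the last exon; rows with overlap on both strands or without a place are not drawn. Opposite-strand transcripts have a peak in the lowest bin, 26.5% of 317, where transcripts without overlap have 1.4% of 356 and the other rows 7.47% of 10089.

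Every comparison below used 1 model, fitted with limma to the whole table, with p-values adjusted over all rows tested, and a row was called at an adjusted p under 0.05. Of the 1508 clone-named transcripts, 1078 could be tested in all 6 knockdowns and 55 in none, and 135 were called in at least 1. All 6 comparisons share the same 3 shControl libraries. In the file, shControl libraries are named with the ending nuc and knockdown libraries without it. A difference of preparation therefore cannot be told apart from a difference of any single knockdown, or of all together, from shControl. The labels do not say whether replicates came from separate cultures, so p-values measure only the spread between these libraries. That spread was estimated over all 15 libraries. With only the compared groups in the fit, 30 clone-named transcripts were called in shU2AF2, 14 in shSF3B4, 1 in shZNF384 and none in the other 3 comparisons, where 165 in shPABPN1, 149 in shPCBP2 and 101 in shHDAC1 had an unadjusted p under 0.05. The counts over all rows fell as well, to 327 of 12362 in shU2AF2, 186 of 12195 in shSF3B4 and 5 of 12541 in shZNF384. In the other 3 they were 0 of 12278 in shPABPN1, 2 of 12434 in shPCBP2 and 2 of 12371 in shHDAC1. At an unadjusted p under 0.05 there were 1692, 1275 and 730 rows in these 3.

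In cells with the hairpin against U2AF2, distal use rose in 68 clone-named transcripts and fell in 9, out of 1363 tested. That is 5.65%, where 7.27% of all rows in the table were called, 5.88% higher and 1.39% lower. The 6 largest named rises were in the antisense transcripts AC078860.2 and U47924.2, in AC106886.2, AC011499.1 and AC011448.1, which overlap a coding gene on its own strand, and in the lincRNA AC068620.1, which has no overlap. The median difference was 0.01, close to the 0.0117 of all rows. Without shControl replicate 1, 58 were called, and with libraries centred on their medians 29, of which 25 were higher.

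U47924.2 is a single-exon antisense RNA on chromosome 12 from 6943508 to 6944604, opposite C12orf57 and the U7 small nuclear RNA gene RNU7-1. It stood at 0.31, 0.35 and 0.31 in the shControl libraries and at 0.99 and 0.87 in shU2AF2. It was also high in shSF3B4, at 0.67 and 0.65, and between 0.24 and 0.39 in the other 8 knockdown libraries. The groups did not overlap, and the 4 libraries of the knocked-down splicing factors were above all 11 others. The difference from shControl was 0.607 in shU2AF2 (SE 0.0392, adjusted p = 4.09e-05) and 0.337 in shSF3B4 (SE 0.0392, adjusted p = 0.00123), and the latter call was lost on a logit scale (adjusted p = 0.297). C12orf57, on the other strand, was at a mean of 0.277 in shControl, 0.315 in shU2AF2 and 0.3 in shSF3B4, and neither difference passed (adjusted p = 0.289 and 0.628).

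AC011448.1 is annotated as protein-coding, with 7 exons, and its last exon, on chromosome 19 from 19535529 to 19536076, overlaps YJEFN3 on the same strand. Its shControl values were 0.35, 0.28 and 0.35, while shU2AF2 gave 0.71 and 0.72 and shSF3B4 0.68 and 0.63. The 8 libraries of the other knockdowns lay between 0.23 and 0.36. As with U47924.2, only the shU2AF2 and shSF3B4 libraries stood above the range of shControl by more than 0.1. The differences were 0.388 (SE 0.0315, adjusted p = 0.000117) and 0.328 (SE 0.0315, adjusted p = 0.00044). The row of YJEFN3 itself moved by 0.0417 and −0.0133, neither of which passed.

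AC106886.2, a processed transcript of 5 exons, ends on chromosome 16 at 30751381 in an exon shared with PHKG2, the catalytic subunit of a phosphorylase kinase. It stood at 0.38, 0.45 and 0.42 in shControl and at 0.87 and 0.88 in shU2AF2, a difference of 0.458 (SE 0.0472, adjusted p = 0.000408). All libraries of shPABPN1, shPCBP2, shSF3B4 and shZNF384 also lay above the shControl range, from 0.51 to 0.77, and only shHDAC1, at 0.51 and 0.39, reached into it. PHKG2 was at 0.437 in shControl and 0.465 in shU2AF2 (adjusted p = 0.767).

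AC078860.2, an antisense RNA of 3 exons opposite LGR5, a receptor of Wnt signalling, had 2 shControl values, 0.02 and 0.001, and none in replicate 1. Its shU2AF2 values, 0.6 and 0.82, were the highest of its 14. The difference was 0.7 (SE 0.1, adjusted p = 0.00413). LGR5 fell in the same cells, from a mean of 0.997 to 0.68 (adjusted p = 0.0372). It was 1 of 4 opposite-strand partners called in shU2AF2, among 42 called transcripts with a tested partner.

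The remaining named rises in shU2AF2 were weaker. AC011499.1, a protein-coding model on PRR22, went from 0.79, 0.4 and 0.54 to 0.98 and 1 (adjusted p = 0.045), and the shSF3B4 libraries stood at 0.89 and 0.94. It was lost without shControl replicate 2 or 3 or either knockdown library (adjusted p up to 0.201). AC068620.1, a lincRNA on chromosome 4 without overlap, went from 0.67, 0.55 and 0.54 to 0.98 and 1 (adjusted p = 0.048), although shHDAC1 replicate 1 also stood at 1. Its call was lost without any 1 of the 5 libraries compared (adjusted p = 0.0619 to 0.212).

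Falls in shU2AF2 were fewer. AD001527.2, a TEC model that shares exon bases with TBCB, a tubulin folding cofactor, and with POLR2I, a subunit of RNA polymerase II, fell from 0.92, 0.8 and 0.82 to 0.58 and 0.55, below every other library. The difference was −0.282 (SE 0.0408, adjusted p = 0.00287), and it was called with each library left out in turn. AC004264.1, antisense to LIF, a cytokine of the interleukin 6 family, fell from 1, 0.68 and 0.79 to 0.31 and 0.44 (adjusted p = 0.0197). Its call was lost without either shU2AF2 library (adjusted p up to 0.137), and it also stood low in shSF3B4, at 0.37 and 0.23, and in the 1 shHDAC1 library with a value, at 0.26. The differences of AC020915.2, AL513218.1, AC008894.3 and AC026471.1 were −0.487, −0.375, −0.228 and −0.247 (adjusted p = 0.0409, 0.0493, 0.0268 and 0.046). Each was lost without either shU2AF2 library and without at least 2 of the shControl libraries (highest adjusted p = 0.21, 0.231, 0.134 and 0.296).

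Calls in shU2AF2 were spread unevenly over the kinds of overlap. Of the 378 tested transcripts whose last exon overlaps an exon of the opposite strand only, 47 were called, 41 higher and 6 lower, which is 12.4%. Among the 243 with same-strand overlap 11 were called, or 4.53%, and among the 536 without overlap 7, or 1.31%. The spread within groups also differed between these classes, as given above, and its part in the counts was not tested. Without shControl replicate 1 the counts were 33 of 371, 9 of 240 and 6 of 517. The overlapped exon bases covered a median of 39% of the last exon in the tested opposite-strand transcripts and 34.7% in the called ones.

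**Figure D3:**
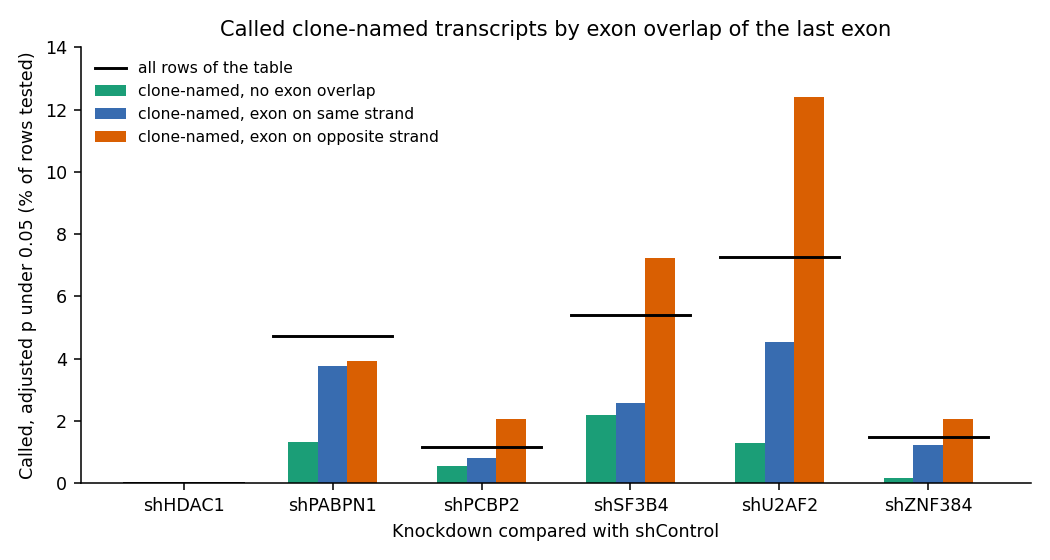
Share of tested clone-named transcripts called at an adjusted p under 0.05 (bars, %), by exon overlap of the last exon, in each knockdown against shControl, with the share of all rows of the table as a black line. In shU2AF2 the opposite-strand bar, 12.4%, is above the line at 7.27% and the bar without overlap, 1.31%, below it; shHDAC1 has no bar because none was called.

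Most genes on the other strand were not called themselves, and neither were most rows of the table. Of the 42 transcripts called in shU2AF2 with an opposite-strand partner that was also tested, 4 had a partner that was called, 2 in the same and 2 in the opposite direction. Over all rows, 7.27% were called in that comparison. In the other comparisons no partner was called for 15 such transcripts in shPABPN1, 6 in shPCBP2, 25 in shSF3B4 and 10 in shZNF384. The shares of all rows called there were 4.72%, 1.17%, 5.42% and 1.5%, so these counts do not set the partners apart from other rows. Over all opposite-strand pairs the differences of transcript and partner correlated across pairs at r = −0.129 to 0.044, depending on the knockdown, with 302 to 316 pairs. Same-strand pairs, 214 to 223 of them, gave r = 0.271 to 0.441. Pairs within 1 comparison share their libraries and are not independent replicates, and on the same strand they can share reads.

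In shSF3B4, 51 of 1252 tested clone-named transcripts were called, or 4.07% against 5.42% of all rows, with 33 higher and 18 lower. Over all rows 4.26% were higher and 1.16% lower. AL353708.3 had the largest fall, while AC142472.1 and AC100830.3 had the largest rises. With libraries centred on their medians, 25 were called, 9 higher and 16 lower, and 24 of these were among the 51. Without shControl replicate 1 the calls were 33, with 17 higher and 16 lower, and without shControl replicate 2 they were 29.

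AL353708.3 is a single-exon lincRNA model on chromosome 1 from 179881607 to 179882595, opposite TOR1AIP1, which encodes a protein of the inner nuclear membrane. It stood at 1 in all 3 shControl libraries and at 0.22 and 0.37 in shSF3B4, while the other 10 knockdown libraries lay between 0.87 and 1. No library outside shSF3B4 was below 0.87. The difference was −0.705 (SE 0.048, adjusted p = 7.74e-05), and it was called in each alternative that gave it a value. TOR1AIP1 stood at a mean of 0.0433 in shControl and 0.045 in shSF3B4 (adjusted p = 1).

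AC026471.1, antisense to ARMC5 on chromosome 16, fell from 0.99, 0.9 and 0.77 to 0.31 and 0.26, a difference of −0.602 (SE 0.0622, adjusted p = 0.000658). In shPABPN1, shPCBP2 and shZNF384 it stood at 1 in every library. AC011330.2, a sense intronic RNA within CATSPER2, a sperm calcium channel gene, fell from 0.86, 1 and 1 to 0.42 and 0.26 (adjusted p = 0.0177), but 8 of the 10 other knockdown libraries lay between 0.56 and 0.69. Its call was lost without shControl replicate 2 or 3 or the second shSF3B4 library (adjusted p up to 0.129). AL117339.5, a protein-coding model that overlaps the pseudogene HSD17B7P2, fell from 0.31, 0.76 and 0.5 to 0.02 and 0.1 (adjusted p = 0.0409). It was lost without shControl replicate 3 or either shSF3B4 library (adjusted p up to 0.219). AC009061.2, not placed in the annotation, went from 1 in all shControl libraries to 0.73 and 0.47 (adjusted p = 0.0181), and its call ended without shControl replicate 2 or 3 or the second shSF3B4 library.

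AC142472.1 is a single-exon lincRNA on chromosome 17 from 45146730 to 45148470 without exon overlap. It rose from 0.38, 0.54 and 0.36 to 1 and 0.79, a difference of 0.468 (SE 0.0725, adjusted p = 0.00529). Its lowest values, 0.14 to 0.22, were in shPCBP2, in shZNF384 and in shPABPN1 replicate 2. AL078587.2 and AC024560.4, neither of them placed, rose by 0.37 and 0.365 (adjusted p = 0.0332 and 0.0173). Both calls were lost without shControl replicate 1 or the first shSF3B4 library, among others (adjusted p up to 0.15 and 0.13).

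AC100830.3 rose in 3 knockdowns. It is a single-exon antisense RNA on chromosome 15 from 64695041 to 64695594, opposite OAZ2, an inhibitor of polyamine synthesis, and its annotated end carries AATAAA. The shControl values were 0.54, 0.49 and 0.56. In shSF3B4 they were 0.94 and 1, in shPABPN1 0.99 and 0.96, in shU2AF2 0.78 and 0.81, and in shPCBP2 0.61 and 0.68, all above shControl, while shHDAC1 and shZNF384 lay between 0.31 and 0.5. The difference was 0.44 in shSF3B4 (SE 0.0546, adjusted p = 0.0018), 0.445 in shPABPN1 (adjusted p = 0.00197) and 0.265 in shU2AF2 (adjusted p = 0.0182). OAZ2 stood at 0.803 in shControl and between 0.735 and 0.86 in the knockdowns, with no call.

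As in shU2AF2, opposite-strand transcripts held the larger part of the calls in shSF3B4, 27 of 373 or 7.24%, against 10 of 458 or 2.18% without overlap and 6 of 233 with same-strand overlap. Without shControl replicate 1 these were 19 of 364, 5 of 445 and 5 of 230. By gene type, 23 of 439 antisense RNAs, 9 of 238 lincRNAs, 5 of 63 processed transcripts and 2 of 164 protein-coding models were called.

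**Figure D4:**
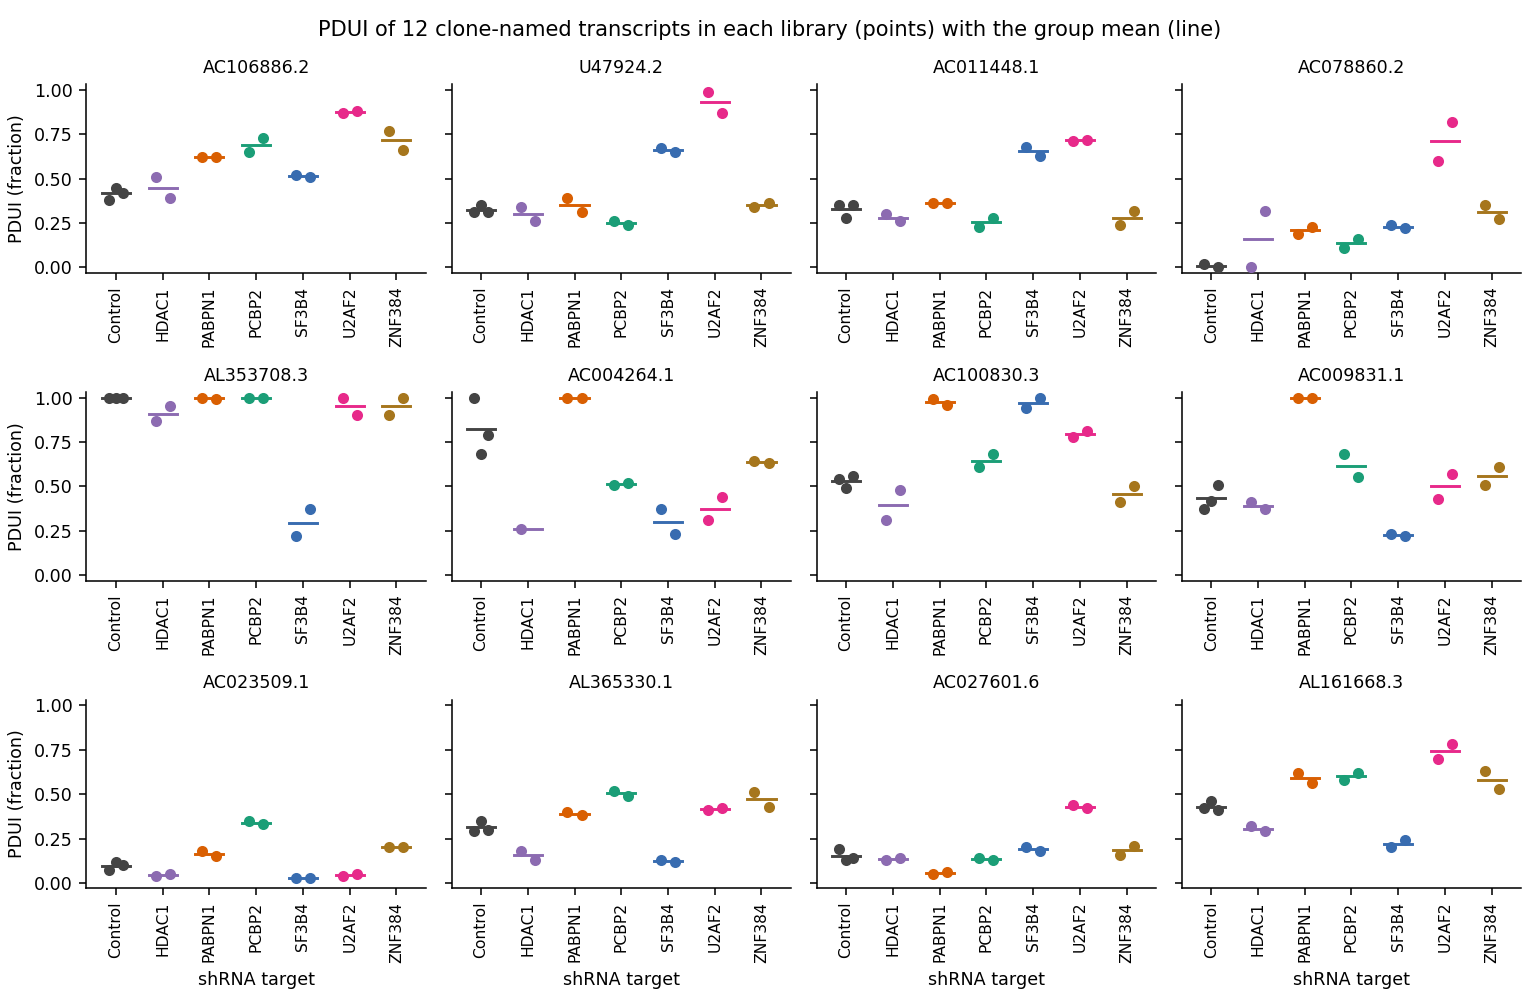
PDUI (fraction) of 12 clone-named transcripts in each of the 15 libraries (points), by shRNA target, with the group mean as a line. U47924.2 and AC011448.1 are high in SF3B4 and U2AF2, AL353708.3 is low in SF3B4 alone, at 0.22 and 0.37, and AC009831.1 stands at 1 in both PABPN1 libraries.

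In shPABPN1, 43 of 1337 tested clone-named transcripts were called, or 3.22% against 4.72% of all rows, with 33 higher and 10 lower. Over all rows 3.99% were higher and 0.725% lower. The median difference was 0, against −0.0093 over all rows. Without shControl replicate 1 the count was 57, 30 higher and 27 lower, and over all rows 1048, 519 higher and 529 lower. It was 23 without shControl replicate 2 and 16 without replicate 3, and 415 and 343 over all rows. Fewer than the 43 were also called without shPABPN1 replicate 1. With libraries centred, 35 were called, of which 32 were higher, and 362 over all rows, of which 338 were higher.

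AC009831.1, a single-exon antisense RNA on chromosome 18 from 31942575 to 31944156, lies opposite TRAPPC8, a subunit of a vesicle tethering complex. It rose from 0.37, 0.42 and 0.51 to 1 in both shPABPN1 libraries, above all other libraries, of which the highest stood at 0.68. The difference was 0.567 (SE 0.0585, adjusted p = 0.000783). TRAPPC8 itself was at 0.0467 in shControl and 0.045 in shPABPN1 (adjusted p = 0.954). The 2 shSF3B4 libraries gave the lowest values of AC009831.1, 0.23 and 0.22, without a call.

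AC099850.1, antisense in the body of SKA2 with no exon overlap, rose from 0.22, 0.56 and 0.38 to 0.91 and 1 (adjusted p = 0.0313). It varied widely elsewhere, up to 0.93 in shPCBP2. The rises of AC010319.2, AC006486.2 and AC092338.3 were 0.378, 0.305 and 0.28 (adjusted p = 0.0199, 0.02 and 0.0475). All 4 calls were lost without shControl replicate 3 and without at least 1 of the shPABPN1 libraries (highest adjusted p = 0.146, 0.122, 0.0948 and 0.251).

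Of the named falls in shPABPN1, 3 were in antisense RNAs without exon overlap. AL353596.1, antisense within HBS1L, fell from 0.89 and 1 in the 2 shControl libraries with a value to 0.45 and 0.46. AL121820.1, within RAD51B on the opposite strand, stood at 1 in all shControl libraries and at 0.58 and 0.65 in shPABPN1, but 6 knockdown libraries had no value. Their differences were −0.49 (adjusted p = 0.0365) and −0.385 (adjusted p = 0.0177). The others were AC120053.1 within FAM92A, AL022341.2 opposite WDR90, AC008993.2 and the unplaced AC022966.2. AC022966.2, AC120053.1, AL022341.2 and AC008993.2 differed by −0.317, −0.262, −0.257 and −0.22 (adjusted p = 0.0271, 0.0436, 0.0293 and 0.0393). Each of these 6 calls was lost without at least 1 shPABPN1 library (highest adjusted p = 0.156, 0.107, 0.134, 0.206, 0.171 and 0.115).

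In shPCBP2, 16 of 1382 tested clone-named transcripts were called, 13 higher and 3 lower. The share was 1.16%, against 1.17% of all rows, of which 1.05% were higher and 0.121% lower. Only 3 calls were made without shControl replicate 1, 5 without shControl replicate 3 and 1 with libraries centred. Over all rows these counts were 58, 55 and 4. Fewer than the 16 were also called without either shPCBP2 library.

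The call that remained with libraries centred was AC023509.1. This processed transcript of 13 exons lies in PCBP2, the gene targeted in these cells, and its last exon, on chromosome 12 from 53467221 to 53467528, overlaps a PCBP2 exon on the same strand. It stood at 0.07, 0.12 and 0.1 in shControl and at 0.35 and 0.33 in shPCBP2, the highest of all libraries. The shZNF384 libraries were both at 0.2 and shPABPN1 at 0.18 and 0.15, while shHDAC1, shSF3B4 and shU2AF2 lay between 0.03 and 0.05. The difference in shPCBP2 was 0.243 (SE 0.014, adjusted p = 0.000175). The row of PCBP2 itself was at 0.57 in shControl and 0.59 in shPCBP2 (adjusted p = 0.837). PDUI gives no amount of RNA, so the strength of the knockdown was not measured by either row.

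Of the others, AC106886.2 rose to 0.65 and 0.73 (adjusted p = 0.033), AC109587.1, antisense to UBA3 of the NEDD8 pathway, from 0.14, 0.18 and 0.23 to 0.38 and 0.46 (adjusted p = 0.0155), and AC138028.6, antisense to the tRNA-modifying enzyme gene CTU2, from 0.09, 0.15 and 0.09 to 0.33 and 0.34 (adjusted p = 0.015). AC010422.7 and AC000123.2 rose by 0.222 and 0.213 (adjusted p = 0.0253 and 0.0453). These 5 calls were lost without shControl replicate 1 and without shPCBP2 replicate 2 (highest adjusted p = 0.196, 0.103, 0.0939, 0.138 and 0.243). The 3 falls were in transcripts with no exon overlap. AC093909.6, a TEC model on chromosome 4, stood at 1 in all shControl libraries and at 0.9 and 0.89 in shPCBP2 (adjusted p = 0.00154) and was called with each library left out. AL162171.1 and AL355488.1 differed by −0.352 and −0.195 (adjusted p = 0.0453 and 0.0364), both lost without either shPCBP2 library and without shControl replicate 1 or 3 (highest adjusted p = 0.255 and 0.193).

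In shZNF384, 14 of 1408 were called, 13 higher and 1 lower, or 0.994% against 1.5% of all rows, of which 1.44% were higher and 0.0638% lower. None was called with libraries centred or without shControl replicate 3, and 4 without shControl replicate 1. Over all rows these counts were 0, 22 and 63. Fewer than the 14 were also called without either shZNF384 library. AL354733.3, antisense to HNRNPK, which encodes an abundant RNA-binding protein, stood at 0.09, 0.1 and 0.08 in shControl and at 0.26 and 0.24 in shZNF384, a difference of 0.16 (SE 0.024, adjusted p = 0.0203). Its values were also high in shPABPN1, at 0.25 and 0.15, and in shPCBP2, at 0.2 and 0.23, and in no other group above 0.1. AC106886.2 rose to 0.77 and 0.66 (adjusted p = 0.0237), and AC109587.1, AL365330.1, AC109322.1 and AC007292.1 rose by 0.182, 0.157, 0.133 and 0.11 (adjusted p = 0.0408, 0.0316, 0.0396 and 0.0205). The fall was that of AL355488.1, antisense in the body of SLC16A4, from 0.97, 0.87 and 0.98 to 0.74 in both libraries (adjusted p = 0.0324). Without shControl replicate 1 none of these 7 was called (lowest to highest adjusted p with a library left out, 0.0149 to 0.24).

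In shHDAC1, no clone-named transcript out of 1301 tested was called by limma, and 0.0243% of all rows were. At an unadjusted p under 0.05 there were 95, or 7.3%, against 740 of 12371 rows in all, or 5.98%. On a logit scale 1 was called, and 13 over all rows. Some were called without shHDAC1 replicate 1 or 2, which leaves 1 library in that group. AC008735.2, which lies opposite an exon of U2AF2, stood at 1 in all 15 libraries, shU2AF2 included.

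**Figure D5:**
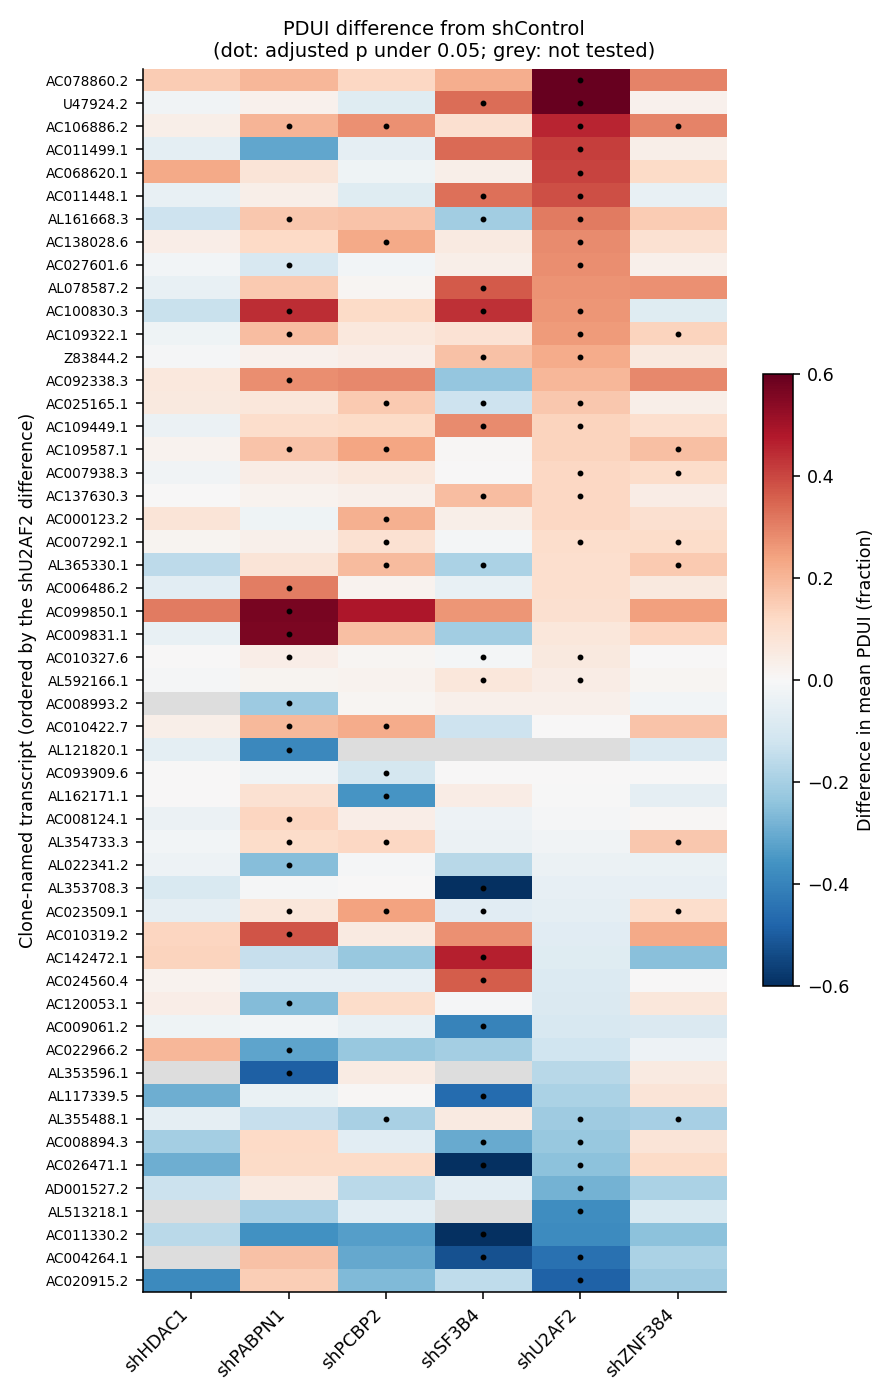
Difference in mean PDUI from shControl for 53 of the 135 clone-named transcripts called in at least 1 knockdown, ordered by the shU2AF2 difference. Only named transcripts are drawn, picked by the rules given with the processing. Colour gives the fraction, from −0.6 in blue to 0.6 in red, with values beyond at the end colours. Dots mark an adjusted p under 0.05 and grey marks cells not tested. AC106886.2 has dots in 4 columns, all rises, and AC023509.1 has dots of both directions; the columns share the shControl libraries.

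The contrast of all 6 knockdowns together with shControl called 22 of 1078 tested clone-named transcripts, 18 higher and 4 lower, or 2.04% against 3.4% of all rows, of which 3.11% were higher and 0.288% lower. No call was left with libraries centred, and 2, 10 and 8 were left without shControl replicate 1, 2 and 3. Over all rows 4 were left with libraries centred, and 137, 204 and 108 without these replicates. AC137630.3 was called with each shControl library left out. It is antisense to IMPDH2, an enzyme of guanine nucleotide synthesis, and stood at 0.01, 0.02 and 0.02 in shControl. Its knockdown values were 0.02 in both shHDAC1 libraries, 0.03 to 0.06 in shPABPN1, shPCBP2 and shZNF384, 0.2 in both shSF3B4 libraries and 0.16 and 0.12 in shU2AF2. The mean difference was 0.0675 (adjusted p = 0.0047), of which shSF3B4, at 0.183, and shU2AF2, at 0.123, made the largest parts.

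Z83844.2, antisense to SH3BP1, a GTPase-activating protein, was also highest in shSF3B4 and shU2AF2. It stood at 0.001, 0.01 and 0.02 in shControl, at 0.2 and 0.17 in shSF3B4 and at 0.22 and 0.25 in shU2AF2, with the other knockdown libraries between 0.001 and 0.09. The mean difference was 0.0864 (adjusted p = 0.00841), lost without shControl replicate 1 (adjusted p = 0.0506). AC109449.1, antisense to KDM8, AL592166.1, antisense to KIF2C, a mitotic kinesin, and U47924.2 differed by 0.118, 0.0252 and 0.15. As given above, U47924.2 stood high in shU2AF2 and shSF3B4 alone, so its joint difference is not a shift of all knockdowns. AC106886.2, AC138028.6, AC109322.1 and AC007938.3 differed by 0.228, 0.136, 0.116 and 0.0533. All 7 were above shControl (adjusted p = 0.0091 to 0.0204) and lost without shControl replicate 1 (highest adjusted p with a library left out, 0.0539 to 0.107). AC010327.6, a single-exon processed transcript on the same strand as TMEM86B and PPP6R1, was at 0.05 in all shControl libraries and differed by 0.0167 over the knockdowns (adjusted p = 0.00267), and with libraries centred this difference turned to −0.005. Its replicates were identical in every group, at values rounded to 2 decimals.

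A comparison among the 6 knockdowns leaves the shControl mean out, although the spread was still estimated with the shControl libraries. In the F-test over the knockdown means, 119 of 1082 clone-named transcripts differed, or 11% against 12.9% of all rows. With only the knockdown libraries in the fit, 113 of them and 1565 of 11463 rows in all differed. The opposite-strand class again had the larger share, 56 of 330 or 17%, against 26 of 374 or 6.95% without overlap and 18 of 220 or 8.18% with same-strand overlap. Of 67 tested TEC models 15 differed, of 379 antisense RNAs 53, of 202 lincRNAs 16 and of 156 protein-coding models 9.

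AC008124.1, a lincRNA on chromosome 12 whose single exon of 9730 bases was the longest of all clone-named last exons, was among the 10 with the smallest p (adjusted p = 0.000126). It stood at 0.28 and 0.25 in shPABPN1, at 0.18 and 0.17 in shPCBP2 and between 0.1 and 0.15 in all other libraries, shControl included. Against shControl the difference in shPABPN1 was 0.128 (SE 0.0095, adjusted p = 0.000136). AC010327.6, AC023509.1, U47924.2, AC011448.1, AC027601.6, AC137630.3, AL365330.1, AL353708.3 and Z83844.2 were the others (adjusted p = 7.51e-06 to 0.000311). All 10 were called among the knockdowns with each library left out and with libraries centred.

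Each knockdown was also set against the mean of the other 5, over the same 1082 transcripts and again without the shControl mean, with the spread of the fit over all 15 libraries. These contrasts share libraries with each other. In shU2AF2, 69 clone-named transcripts were called, 62 higher and 7 lower, where 6.49% of all rows were called, 4.46% higher and 2.03% lower. The opposite-strand class held 38 of them, of 330 tested, 37 higher and 1 lower. With libraries centred 35 were called, and 336 of 11463 rows in all. Fewer than the 69 were called without either shU2AF2 library.

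In shSF3B4, 69 were called, 22 higher and 47 lower, where 6.99% of all rows were called, 3.59% higher and 3.39% lower. With libraries centred, 14 were higher and 36 lower against the other knockdowns, and 9 higher and 16 lower against shControl. Over all rows the centred counts were 160 higher and 222 lower, and 111 higher and 99 lower. Without centring, then, more clone-named transcripts were lower than higher in shSF3B4 against the other knockdowns, while against shControl more were higher. Only the former direction was kept with centring. Without the first shSF3B4 library the count was 40, with 17 higher and 23 lower. Opposite-strand transcripts again made up the largest class, with 39 of 330, of which 13 were higher and 26 lower.

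The shPABPN1 contrast called 59, 29 higher and 30 lower, where 11.2% of all rows were called, 4.19% higher and 7.05% lower. With libraries centred the split turned to 66 higher and 6 lower. That of all 11463 rows turned as well, to 805 higher and 93 lower. Fewer than the 59 were called without either shPABPN1 library. In shHDAC1, which had no call against shControl, 51 were called against the other knockdowns, 5 higher and 46 lower, where 5.84% of all rows were called, 0.55% higher and 5.29% lower. That count was 25 with libraries centred, where 204 of 11463 rows in all were called. It was also lower without either shHDAC1 library. The shPCBP2 contrast called 11, 5 higher and 6 lower, where 1.39% of all rows were called, 0.724% higher and 0.663% lower. The shZNF384 contrast called 10, 7 higher and 3 lower, where 0.646% of all rows were called, 0.419% higher and 0.227% lower. Centring left 6 in shPCBP2 and 0 in shZNF384, and 18 and 1 over all rows. Leaving out 1 library of the knockdown reduced both counts.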

How the data were processed

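Poly(A)-selected RNA of 15 HEK293T libraries was sequenced, and PDUI per transcript is a fraction in the table the authors deposited, with 2 decimals and missing entries. The build is hg38 per the submitters' processing notes. As for the program, aligner and annotation, their names were not given in the sources used here. Both isolation of nuclear RNA and extraction of total RNA are named in the labels' protocols. No counts were used, so the depth per library and the precision it gives are unknown.

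PDUI was fitted as deposited with limma 3.58.1 in R 4.3.3, with 1 mean per group and a mean-variance trend, for rows with both knockdown values and at least 2 shControl values. The comparisons were each knockdown against shControl, all 6 together against shControl, an F-test among the 6, and each knockdown against the mean of the other 5. P-values were adjusted by Benjamini and Hochberg's method over all rows of a comparison and called under 0.05. The steps were tested on simulated data. Tables were built with Python 3.11.15, pandas 2.3.3 and numpy 2.4.6. Gene types, last exons, exon overlap and transcript ends came from GENCODE release 29, matched by transcript identifier, with sequences only for the same version.

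Named transcripts were the 6 largest rises and 6 largest falls per knockdown with both libraries outside the shControl range, the 10 smallest p of the joint contrast and of the F-test, 6 called in opposite directions, and the 3 lowest and 3 highest complete rows. The members, lists and rules were chosen with earlier results of these data known. Alternatives were centring on library medians, a logit scale, other filters and fits, a replicate block and leaving out each library. Non-coding members only, overlap classes without shControl replicate 1, a fit without shSF3B4 and the alternatives for the contrasts of 1 knockdown with the other 5 were added after seeing the data. The 1 member on chromosome Y is counted and not described.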

Additional observations from a re-analysis of the deposited data

Results flagged for a closer look

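In 6 clone-named transcripts distal use was called higher than shControl in 1 knockdown and lower in another, and the test of the difference between those knockdowns, by limma with adjustment over all rows, was called as well. They were picked after their values were seen, so these p-values are not independent of the choice.

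AL161668.3, antisense to METTL17, stood at 0.7 and 0.78 in shU2AF2 and at 0.2 and 0.24 in shSF3B4, on either side of shControl at 0.42, 0.46 and 0.41. The difference between the knockdowns was 0.52 (SE 0.0416, adjusted p = 0.000335). Its call against shControl in shSF3B4 was lost without either shSF3B4 library (adjusted p up to 0.101). METTL17 itself lay between 0.16 and 0.22 in all libraries.

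AL365330.1, antisense to LRRC47, stood at 0.52 and 0.49 in shPCBP2 and at 0.13 and 0.12 in shSF3B4, with shControl at 0.29, 0.35 and 0.3. The difference was 0.38 (SE 0.0293, adjusted p = 0.000151). The rise in shPCBP2 was lost without shControl replicate 1 or 3 or either shPCBP2 library (adjusted p up to 0.0958), while the fall in shSF3B4 was called with each library left out.

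AC027601.6, not placed in the annotation, stood at 0.44 and 0.42 in shU2AF2 and at 0.05 and 0.06 in shPABPN1, with shControl at 0.19, 0.13 and 0.14. The difference was 0.375 (SE 0.0211, adjusted p = 3.14e-05), and the fall in shPABPN1 was lost without either of its libraries (adjusted p up to 0.128).

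AC023509.1, in PCBP2, differed between shPCBP2 and shSF3B4 by 0.31 (SE 0.0153, adjusted p = 1.48e-05). Its fall in shSF3B4, to 0.03 in both libraries, was lost without shControl replicate 2 or 3 or either shSF3B4 library (adjusted p up to 0.125).

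AC025165.1, antisense to ARHGEF25, stood at 0.38 and 0.45 in shU2AF2 and at 0.13 in both shSF3B4 libraries, a difference of 0.285 (SE 0.031, adjusted p = 0.0013). Its fall in shSF3B4 was lost without any 1 of the 5 libraries compared (adjusted p = 0.0549 to 0.166). AC010327.6 stood at 0.11 in both shU2AF2 libraries and at 0.04 in both of shSF3B4, a difference of 0.07 (SE 0.0026, adjusted p = 7.89e-06). With shControl at 0.05, its fall in shSF3B4 was −0.01, the smallest step that values with 2 decimals can show. The SE lies below that step because its replicates were identical after rounding. The call of this fall was likewise lost without any 1 library.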

How the results depend on the processing

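With libraries centred on their medians, calls among clone-named transcripts numbered 1 in shPCBP2, 25 in shSF3B4, 29 in shU2AF2, 0 in shZNF384 and 0 for all knockdowns together. The whole table gave 4, 210, 391, 0 and 4. With only the compared groups in the fit they numbered 0 in shPABPN1 and shPCBP2, 14 in shSF3B4, 30 in shU2AF2 and 1 in shZNF384. A logit scale gave 1 in shHDAC1 and no trend in the variance prior 9 in shZNF384. A difference of at least 0.1 gave 11 for all knockdowns, and the fit without shSF3B4 7 in shPCBP2. These counts were 13, 120, 148 and 95 in the whole table. Transcripts without exon overlap alone gave 7 in shPABPN1, 3 in shPCBP2, 10 in shSF3B4, 7 in shU2AF2, 1 in shZNF384, 1 for all knockdowns and 26 in the F-test. With 1 library left out, the counts ran from 0 to 8 in shHDAC1, 16 to 57 in shPABPN1, 3 to 12 in shPCBP2, 29 to 41 in shSF3B4, 58 to 64 in shU2AF2, 0 to 11 in shZNF384, 2 to 30 for all knockdowns and 87 to 132 in the F-test. Where this leaves a knockdown with 1 library, that library is assumed to vary like the other groups. Counts over all rows moved as well. Without 1 shControl library they ran from 343 to 1048 in shPABPN1, 55 to 119 in shPCBP2 and 461 to 536 in shSF3B4. They ran from 701 to 788 in shU2AF2, 22 to 140 in shZNF384 and 108 to 204 for all knockdowns. Against the other 5 knockdowns, centring gave 25 in shHDAC1, 6 in shPCBP2, 35 in shU2AF2 and 0 in shZNF384, and 204, 18, 336 and 1 over all rows. Leaving out 1 library of the knockdown gave 21 to 25 in shHDAC1, 19 to 24 in shPABPN1, 3 to 4 in shPCBP2, 40 to 52 in shSF3B4, 40 to 41 in shU2AF2 and 1 to 2 in shZNF384. The causes were not tested.

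Of 1211 values of 83 named results under alternatives, 322 were no longer called and 1 reversed, that of AC010327.6 over all knockdowns, −0.005 with libraries centred. The depth of the libraries is not in the table and limits every value to an unknown degree. Replicate numbers did not pair the samples: deviations of same-numbered libraries correlated at −0.0254 to 0.0583. With the replicate block, 13 were called in shPABPN1, 1 in shPCBP2, 51 in shU2AF2, 0 in shZNF384 and 0 in shHDAC1. The whole table gave 233, 7, 534, 3 and 6. No paired analysis was made for shSF3B4, the joint contrast and the F-test because the labels disagree on the replicate numbers of the shSF3B4 libraries.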
